A study of Aspergillus nidulans with 32 samples.

Results

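The genes described here are 7 genes of glucose entry in the filamentous fungus Aspergillus nidulans: 5 sugar transporter genes and the 2 genes of the kinases that act on glucose first. They were taken by gene identifier from a count table of 10681 genes. The transporters were mstE (AN5860), hxtB (AN1797), hxtA (AN6923), mstA (AN8737) and hxtC (AN10891), and the kinases were hxkA (AN7459, hexokinase) and glkA (AN8689, glucokinase). All 7 passed the filter on low counts, among 10022 genes that did.

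Glucose crosses the fungal plasma membrane through proton symporters and facilitators of the major facilitator superfamily. Low-affinity transporters work when sugar is plentiful and high-affinity transporters when it is scarce, and carbon catabolite repression is known to hold down the genes of scarce-sugar uptake while glucose lasts. Hexokinase and glucokinase then convert glucose to glucose 6-phosphate, which traps it in the cell and opens glycolysis, the pentose phosphate pathway and trehalose synthesis. Of the members, mstE and hxtB are known to encode low-affinity glucose transporters of this fungus, hxtA and mstA are known as high-affinity ones, and hxtC encodes a hexose transporter. hxtB has also been described as taking part in glucose signalling.

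Polyadenylated RNA of mycelium was sequenced from 16 cultures, a pair lettered A and B in each of 8 groups, with 2 technical libraries made from every culture. Starved cultures grew for 20 h in minimal medium with 50 mM glucose and 10 mM nitrate at 37 °C and then stayed 4 h in a salt solution, the same medium lacking both its carbon and its nitrogen source. Grown cultures stayed in minimal medium for 24 h. Pre-starved refed cultures went through the 20 h of growth and 4 h of salt and then had 2 h of fresh minimal medium, while naive refed cultures had those 2 h after 24 h of growth. Other groups went through the steps of either refed group and then 1 more hour in used medium (taken from the fungus after 48 h of growth) or in salt solution. These were the pre-starved used medium, naive used medium, pre-starved salt and naive salt groups. Pre-starved and naive cultures differ in hours of growth (20 against 24) and in the number of medium changes as well as in starvation, and these cannot be told apart, nor can loss of carbon and loss of nitrogen. Per the labels, the strains were WT FGSC#4 and RKIS42.17, which carries alcA(p)-sGFP-aflR (aflR under the alcA promoter), with the auxotrophic markers pabaA1/pabaB22 and biA1, without a statement of which strain each sample came from. Culture totals ran from 39526910 to 66121549 counts.

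Levels of 1 gene across groups are in CPM, read counts normalised to library size with trimmed means (TMM), and are given as the values of cultures A and B. Levels of different genes are compared only as CPM per kb of exon length. A change is a log2 difference between groups with its standard error, and it was called at an adjusted p under 0.05 in the edgeR test across all genes. Many genes moved in these cultures, so each count of members called is given with the percentage of all tested genes called in that comparison.

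Most members followed 1 of 2 opposite patterns across starvation, growth and refeeding. In starved cultures against grown ones, hxtA, mstA and hxtC rose, mstE, glkA and hxkA fell, and hxtB did not pass the test. These 6 of 7 called members stand beside 73.4% of all tested genes called. Their median absolute log2 change was 6.58 over the 7 members and 0.97 over all tested genes. In pre-starved refed cultures against starved ones all 7 members were called, beside 76.3% of all genes, with a median absolute log2 change of 3.74 over the members and 1.09 over all genes. There mstE, hxtB, hxkA and glkA rose and hxtA, mstA and hxtC fell. Both comparisons use the same starved cultures. The summed level of 7 markers of conidiophores and conidia, other cells that a mycelium can hold, was 1072 and 1500.5 CPM in starved cultures. In grown cultures it was 23.5 and 25.1 CPM. Most of the starved sum was rodA (677 and 1072 CPM) and brlA (346 and 383 CPM). Of the 7 markers 5 were called higher, while abaA (log2 change 0.44, adjusted p = 0.279) and wetA (-0.26, adjusted p = 0.350) were not called. The part of such cells in these changes was not tested.

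**Figure D1:**
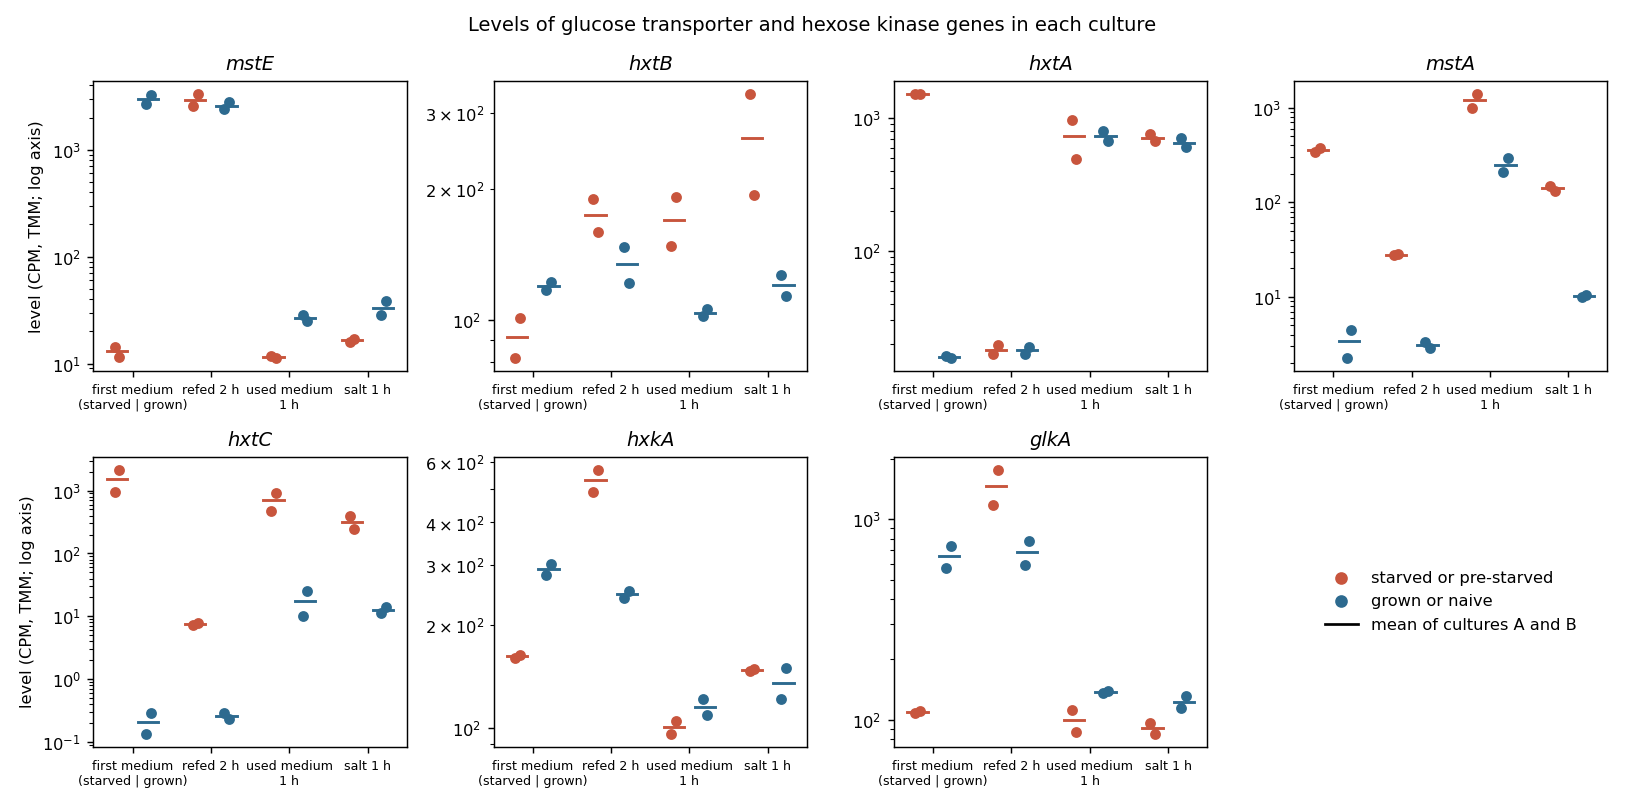
Level of each member in each culture, in CPM on a log axis, with the media along the horizontal axis, 1 point per culture and a line at the mean of cultures A and B. mstE lies between 11.2 and 38.2 CPM in the 10 cultures in salt or used medium and between 2400.1 and 3305 CPM in the 6 grown and refed cultures. hxtA lies between 497.1 and 1518 CPM in those 10 and between 15.6 and 19.5 CPM in the other 6.

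The low-affinity gene mstE had 14.4 and 11.6 CPM in starved cultures, against 2678 and 3242 CPM in grown cultures. Pre-starved refed cultures had 2566 and 3305 CPM and naive refed cultures 2400.1 and 2782 CPM. High values were thus found in all grown and refed cultures and low values in all starved, salt and used medium cultures, with no overlap between these sets. The fall in starved against grown cultures was 228-fold (log2 change -7.83 ± 0.24 SE, adjusted p = 1.25e-10), and the rise in pre-starved refed against starved cultures was 226-fold (log2 change 7.82 ± 0.24 SE, adjusted p = 8.81e-11). By CPM per kb, mstE ranked 7206 of the 10022 tested genes in starved cultures and 98 in grown ones. In this bulk RNA, fewer hyphae of a kind and less RNA per hypha cannot be told apart.

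After 1 h in salt solution mstE was already low. It had 16.1 and 16.9 CPM in pre-starved salt cultures and 28.3 and 38.2 CPM in naive salt cultures. In used medium mstE had 11.7 and 11.2 CPM in pre-starved cultures and 28.5 and 25.0 CPM in naive cultures. In both media the pre-starved cultures were below the naive ones without overlap. Against refed cultures of the same history the falls were 178-fold in pre-starved salt (log2 change -7.48 ± 0.23 SE, adjusted p = 8.26e-11) and 77.9-fold in naive salt (log2 change -6.28 ± 0.22 SE, adjusted p = 1.78e-10). They were 256-fold in pre-starved used medium (log2 change -8.00 ± 0.24 SE, adjusted p = 5.75e-11) and 96.8-fold in naive used medium (log2 change -6.60 ± 0.23 SE, adjusted p = 1.29e-10). From the lowest group up, the order of mstE levels was pre-starved used medium, starved, pre-starved salt, naive used medium, naive salt, naive refed, pre-starved refed and grown. Cultures overlapped between the first 2 of these groups, between naive used medium and naive salt, and among the grown and both refed groups.

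The other low-affinity gene, hxtB, moved little. It had 81.5 and 101 CPM in starved cultures and 117 and 122 CPM in grown cultures. Pre-starved refed cultures had 190.2 and 159 CPM and naive refed cultures 148 and 122 CPM. The starved cultures were the lowest and did not overlap with any other group, yet the difference from grown cultures missed the threshold (log2 change -0.39 ± 0.22 SE, adjusted p = 0.120). It passed with only the groups compared in the fit (adjusted p = 0.0247) and with 32 libraries in place of 16 cultures (adjusted p = 0.0380), and its direction turned with library totals in place of TMM (0.11, adjusted p = 0.660). Pre-starved refed cultures were 1.92-fold above starved ones (log2 change 0.94 ± 0.22 SE, adjusted p = 0.00170), a call that was lost with library totals (log2 change 0.28, adjusted p = 0.254). The highest levels of hxtB were in pre-starved salt cultures, at 331 and 194 CPM, against 127 and 114 CPM in naive salt cultures. Used medium gave 148 and 192 CPM in pre-starved cultures and 102 and 106 CPM in naive ones. Its highest group mean was 2.88-fold its lowest, against 258-fold for mstE. The order from the lowest group was starved, naive used medium, grown, naive salt, naive refed, pre-starved used medium, pre-starved refed and pre-starved salt, with overlap among grown, naive salt and naive refed and between the pre-starved used medium and pre-starved refed groups.

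hxtA, a high-affinity transporter gene, ran opposite to mstE. It had 1518 and 1517 CPM in starved cultures, against 16.1 and 15.6 CPM in grown cultures. Pre-starved refed cultures had 16.6 and 19.5 CPM and naive refed cultures 16.7 and 19.0 CPM. Starved cultures were therefore 95.6-fold above grown ones (log2 change 6.58 ± 0.30 SE, adjusted p = 1.36e-09), and pre-starved refed cultures were 83.9-fold below starved ones (log2 change -6.39 ± 0.29 SE, adjusted p = 1.28e-09). By CPM per kb it ranked 84 in starved and 6472 in grown cultures. After 1 h in salt it had 757 and 674 CPM in pre-starved cultures and 705 and 605 CPM in naive ones, and after 1 h in used medium 977 and 497 CPM in pre-starved cultures and 796 and 680.1 CPM in naive ones. These 4 groups overlapped, lay below the starved cultures and lay above all grown and refed cultures. The rise over refed cultures of the same history ran from 36.7-fold in naive salt (log2 change 5.20 ± 0.28 SE, adjusted p = 4.36e-09) to 41.4-fold in naive used medium (log2 change 5.37 ± 0.28 SE, adjusted p = 3.29e-09). The order from the lowest was grown, naive refed, pre-starved refed, naive salt, pre-starved salt, pre-starved used medium, naive used medium and starved, with overlap between the 2 refed groups and between neighbours in salt and used medium.

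mstA, the other high-affinity gene, had 337 and 371 CPM in starved cultures, against 2.25 and 4.51 CPM in grown cultures. The rise was 105-fold (log2 change 6.71 ± 0.31 SE, adjusted p = 1.75e-09). The log2 change was 7.30 without grown culture B and 6.30 without grown culture A. Refeeding left it at 27.8 and 28.3 CPM in pre-starved cultures, against 3.35 and 2.87 CPM in naive ones. Pre-starved refed cultures were 12.6-fold below starved cultures (log2 change -3.66 ± 0.27 SE, adjusted p = 7.00e-08) and still 8.28-fold above grown ones (log2 change 3.05 ± 0.28 SE, adjusted p = 4.69e-06). The log2 change against grown cultures ran from 2.64 to 3.64 with a culture left out in turn. Used medium gave the highest level of all groups in pre-starved cultures, 1005 and 1389.7 CPM, against 207 and 292 CPM in naive ones. Salt gave 149 and 133 CPM in pre-starved cultures and 9.98 and 10.5 CPM in naive ones. For mstA, used medium and salt, and pre-starved and naive cultures, thus lay apart without overlap, while for hxtA they overlapped. The order from the lowest was naive refed, grown, naive salt, pre-starved refed, pre-starved salt, naive used medium, starved and pre-starved used medium, and only the first 2 overlapped.

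hxtC, a hexose transporter gene, had the widest span, 7236-fold between its highest and lowest group mean. It had 940.4 and 2127 CPM in starved cultures, against 0.136 and 0.288 CPM in grown cultures, where it had 5 and 11 counts. Pre-starved refed cultures had 7.31 and 7.84 CPM and naive refed cultures 0.294 and 0.237 CPM, where it had 12 and 10 counts. The rise in starved against grown cultures was about 7121-fold (log2 change 12.80 ± 0.79 SE, adjusted p = 1.81e-08), and its size rests on those few counts. Without starved culture B the log2 change was 12.09, and without grown culture B it was 13.44. In used medium hxtC had 482 and 922 CPM in pre-starved cultures and 10.0 and 25.3 CPM in naive ones, and in salt 387 and 244 CPM in pre-starved cultures and 11.2 and 14.0 CPM in naive ones. Every pre-starved culture was thus far above every naive culture of the same medium. The groups ran, from the lowest, grown, naive refed, pre-starved refed, naive salt, naive used medium, pre-starved salt, pre-starved used medium and starved, with overlap between the first 2 and between naive salt and naive used medium. By CPM per kb hxtC ranked 76 in starved and 9456 in grown cultures.

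Set side by side per length, the 5 transporters changed places. mstE made up 0.331 ± 0.134% of their summed CPM per kb in starved cultures and 95.8 ± 0.400% in grown cultures. Its share was 93.0 ± 1.64% in pre-starved refed and 94.7 ± 1.04% in naive refed cultures. In starved cultures hxtA held 43.1 ± 11.4% and hxtC 44.9 ± 13.7%, and cultures A and B differed in which of these led. mstA led in pre-starved used medium with 41.0 ± 5.09%, in culture A by a narrow margin over hxtA (37.4% against 37.3%), whereas hxtA led in naive used medium with 66.7 ± 6.73%, in pre-starved salt with 50.7 ± 5.06% and in naive salt with 81.6 ± 1.77% (mean ± SD, 2 cultures). The summed CPM per kb of the 5 genes was 2049 ± 541 in starved and 1524 ± 199 in grown cultures. It was 1587 ± 166 in pre-starved and 621 ± 6.30 in naive used medium, and 799 ± 144 in pre-starved and 450.3 ± 38.9 in naive salt. The log2 ratio of high-affinity (hxtA plus mstA) to low-affinity (mstE plus hxtB) CPM per kb was 4.50 ± 0.14 in starved and -7.13 ± 0.10 in grown cultures. The same ratio was -5.89 ± 0.16 in pre-starved refed and -6.83 ± 0.044 in naive refed cultures. It was 3.74 ± 0.30 in pre-starved and 3.23 ± 0.035 in naive used medium, and 2.00 ± 0.39 in pre-starved and 2.43 ± 0.14 in naive salt. It was thus above 0 in all 10 starved, salt and used medium cultures and below 0 in all 6 grown and refed cultures.

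**Figure D2:**
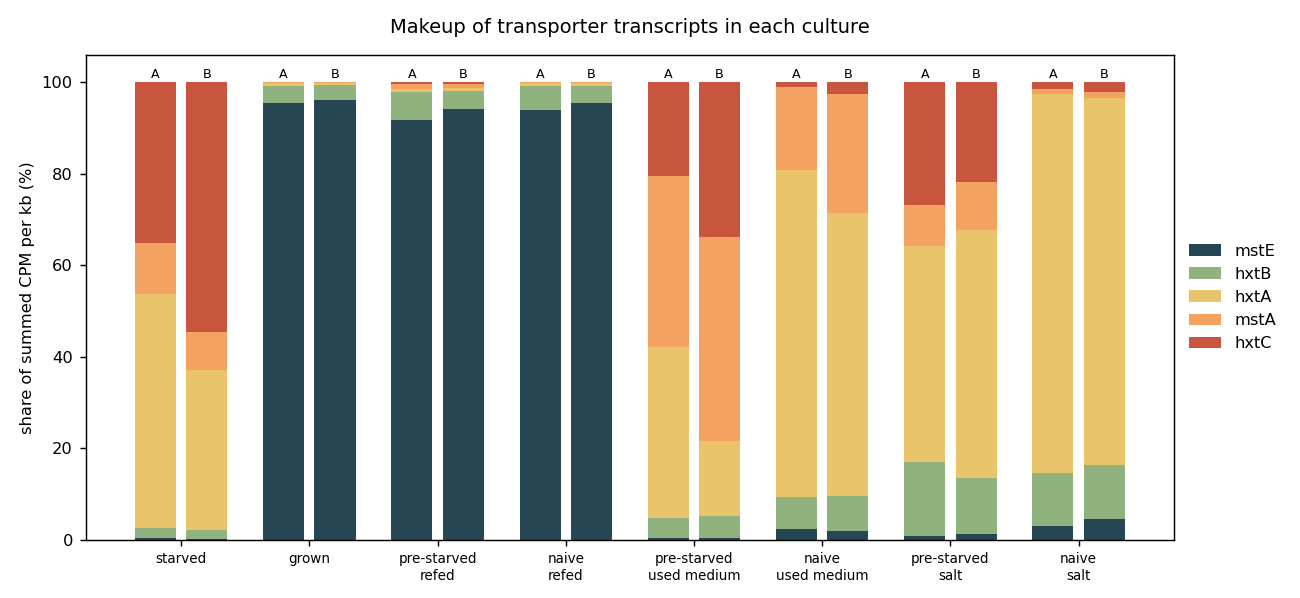
Share of each of the 5 transporter genes in their summed CPM per kb, in percent, with 1 stacked bar for each of the 16 cultures. mstE fills a mean of 0.331% of the bars of starved cultures and 95.8% of those of grown ones.

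The kinase genes went down with mstE but much less far. glkA had 108 and 111 CPM in starved cultures, against 570.3 and 735 CPM in grown cultures. hxkA had 160.1 and 164 CPM in starved cultures, against 281 and 303 CPM in grown ones. The fall was 5.95-fold for glkA (log2 change -2.57 ± 0.21 SE, adjusted p = 2.86e-07) and 1.80-fold for hxkA (log2 change -0.85 ± 0.12 SE, adjusted p = 3.05e-05), the second of which shrank to a log2 change of -0.35 with library totals. After refeeding glkA had 1173 and 1759 CPM in pre-starved cultures and 592 and 776 CPM in naive ones. hxkA then had 492 and 570.0 CPM in pre-starved cultures and 241 and 252 CPM in naive ones. For both kinases the pre-starved refed cultures were the highest of all 8 groups and overlapped with none. Against starved cultures they were 13.4-fold higher for glkA (log2 change 3.74 ± 0.23 SE, adjusted p = 1.27e-08) and 3.28-fold higher for hxkA (log2 change 1.71 ± 0.12 SE, adjusted p = 5.05e-08).

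In salt, glkA had 96.6 and 85.0 CPM in pre-starved cultures and 114 and 131 CPM in naive ones, and hxkA had 147 and 149 CPM in pre-starved cultures and 121 and 150.4 CPM in naive ones. In used medium, glkA had 112 and 86.9 CPM in pre-starved cultures and 136 and 139 CPM in naive ones, and hxkA had 96.2 and 105 CPM in pre-starved cultures and 122 and 109 CPM in naive ones. Neither kinase kept its high pre-starved level once the fresh medium was taken away. From the lowest, glkA ran pre-starved salt, pre-starved used medium, starved, naive salt, naive used medium, grown, naive refed and pre-starved refed, with overlap among the first 3 groups in neighbouring pairs and between grown and naive refed. hxkA ran pre-starved used medium, naive used medium, naive salt, pre-starved salt, starved, naive refed, grown and pre-starved refed, and the naive salt cultures overlapped with both neighbours. By CPM per kb glkA exceeded hxkA in the grown and refed cultures and lay below it in the starved ones: the log2 ratio of glkA to hxkA was -0.82 ± 0.0024 in starved and 0.89 ± 0.18 in grown cultures. Among refed cultures it was 1.18 ± 0.26 in pre-starved and 1.20 ± 0.23 in naive ones. In used medium it was -0.29 ± 0.35 in pre-starved and -0.0081 ± 0.12 in naive cultures, of which culture B was above 0 (0.080).

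Naive refed cultures differed from grown ones by 2 h in fresh medium. None of the 7 members was called in this comparison, beside 3.10% of all tested genes. The lowest adjusted p among them was 0.317 (hxkA, log2 change -0.24). In the same edgeR test 0 members had an unadjusted p under 0.05, beside 1713 of the 10022 tested genes. DESeq2 called 0 members and the fit to 32 libraries 0, beside 599 of all genes in each. A count of 0 among 7 members lies near these shares. mstE differed by a log2 change of -0.19 ± 0.18 (SE) and hxtC by 0.31 ± 1.11, the second at 5 to 12 counts per culture.

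After 2 h of refeeding 4 members were higher in cultures with a past starvation. mstA, hxtC, hxkA and glkA rose in pre-starved refed against grown cultures, beside 22% of all genes called higher and 44.6% called in either direction. These 4 also rose against naive refed cultures, beside 21.4% called higher and 42.7% in either direction. These comparisons share the pre-starved refed cultures. Against naive refed cultures mstA was 9.02-fold higher (log2 change 3.17 ± 0.28 SE, adjusted p = 3.90e-06) and hxtC 28.4-fold higher (log2 change 4.83 ± 0.69 SE, adjusted p = 1.76e-04). hxkA was 2.15-fold higher (log2 change 1.11 ± 0.12 SE, adjusted p = 1.94e-05) and glkA 2.14-fold higher (log2 change 1.10 ± 0.20 SE, adjusted p = 0.00109). The values for the other 3 were a log2 change of 0.18 ± 0.18 for mstE, 0.020 ± 0.24 for hxtA and 0.38 ± 0.22 for hxtB (SE). Against grown cultures hxtC was 35.2-fold higher (log2 change 5.14 ± 0.73 SE, adjusted p = 1.42e-04), hxkA 1.82-fold (log2 change 0.86 ± 0.12 SE, adjusted p = 1.08e-04) and glkA 2.25-fold (log2 change 1.17 ± 0.20 SE, adjusted p = 6.65e-04). With a culture left out in turn, the log2 change of hxtC against grown cultures ran from 4.705 to 5.78. hxtB had a value of 0.55 ± 0.22 against grown cultures (SE, adjusted p = 0.0567), which was called higher with only the groups compared (adjusted p = 0.00890), with DESeq2 (0.0336) and in the fit to 32 libraries (0.00649). Against naive refed cultures hxtB was called higher in the fit to 32 libraries (adjusted p = 0.0495). The hxtC calls were lost in the fit to 32 libraries, with an adjusted p of 0.234 against grown and 0.222 against naive refed cultures.

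**Figure D3:**
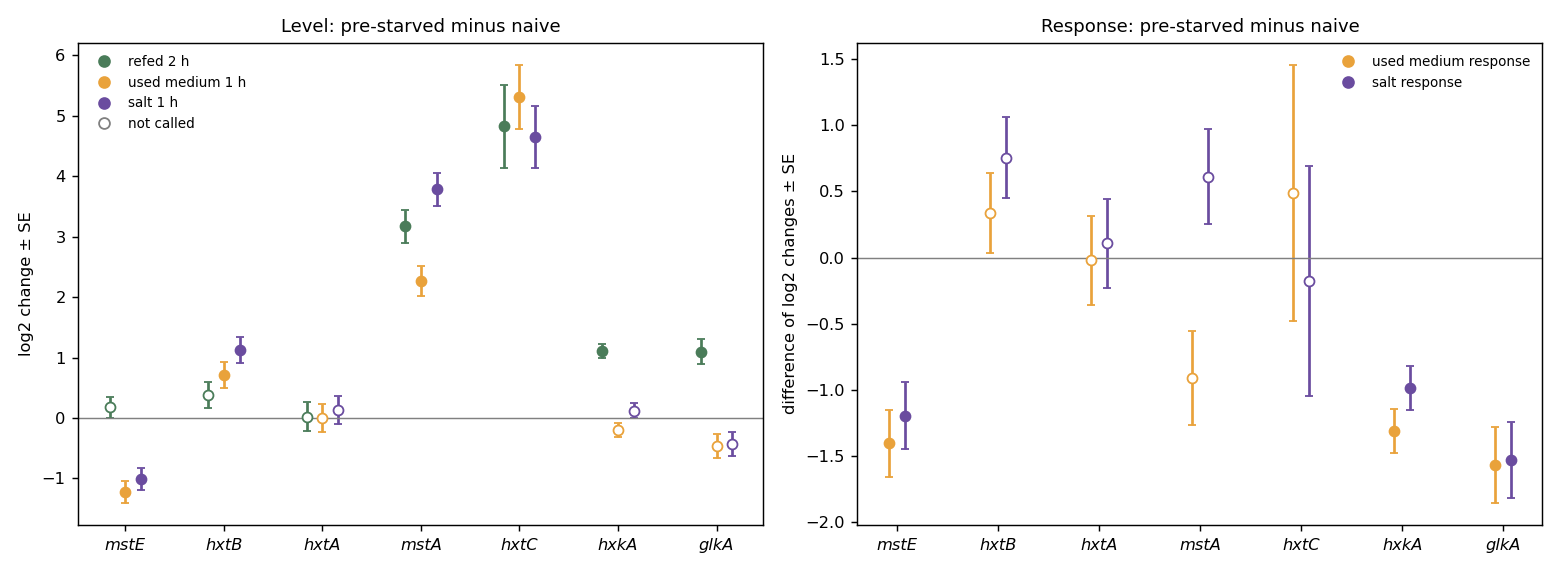
Pre-starved minus naive cultures: log2 change ± SE of each member in refed, used medium and salt cultures, and the difference of the responses to used medium and to salt between pre-starved and naive cultures, with open points for values not called. mstA and hxtC lie above 0 in all 3 media, and mstE, hxkA and glkA lie below 0 in both differences of responses.

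In pre-starved against naive salt cultures 4 members were called, beside 43.0% of all genes. mstA was 13.8-fold higher (log2 change 3.78 ± 0.27 SE, adjusted p = 1.87e-06), hxtC 25.0-fold higher (log2 change 4.65 ± 0.52 SE, adjusted p = 3.42e-05), hxtB 2.19-fold higher (log2 change 1.13 ± 0.22 SE, adjusted p = 0.00132) and mstE 2.02-fold lower (log2 change -1.01 ± 0.18 SE, adjusted p = 7.89e-04). The same 4 genes were called with the same signs in pre-starved against naive used medium, beside 39.7% of all genes. There mstA was 4.80-fold higher (log2 change 2.26 ± 0.25 SE, adjusted p = 3.72e-05), hxtC 39.8-fold higher (log2 change 5.32 ± 0.53 SE, adjusted p = 2.00e-05), hxtB 1.64-fold higher (log2 change 0.71 ± 0.22 SE, adjusted p = 0.0207) and mstE 2.33-fold lower (log2 change -1.22 ± 0.18 SE, adjusted p = 2.99e-04). glkA had a value of -0.47 ± 0.20 (SE, adjusted p = 0.0882), called lower in the fit to 32 libraries (adjusted p = 0.0113). With a culture left out in turn, the log2 change of hxtC in used medium ran from 4.77 to 6.12. The hxtB call in used medium was lost without naive culture A (adjusted p = 0.0931), without naive culture B (0.0722) and without pre-starved culture B (0.151). hxtA had a log2 change of 0.13 ± 0.23 in salt and -0.002 ± 0.23 in used medium (SE), and without pre-starved used medium culture A the second was -0.57 (adjusted p = 0.0181), a call of lower.

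Markers of conidiophores and conidia moved with the history too. All 7 marker genes (brlA, abaA, wetA, rodA, dewA, wA and yA) were detected in every group. Their summed level was 2183 and 1728 CPM in pre-starved refed cultures and 24.3 and 22.4 CPM in naive refed ones. It was 250.3 and 547 CPM in pre-starved and 45.8 and 51.2 CPM in naive salt, and 152 and 301 CPM in pre-starved and 51.9 and 40.0 CPM in naive used medium. In pre-starved refed cultures most of the sum was rodA (a hydrophobin of the conidial wall), with 2021 and 1620 CPM there and 0.294 and 0.308 CPM in naive refed cultures, whereas dewA had 0.044 and 0.135 CPM in pre-starved refed cultures and was not called against naive refed cultures (log2 change -0.80). Of the 7, 5 rose in starved against grown, beside 38.8% of all genes called higher, 5 in pre-starved against naive refed, beside 21.4%, and 5 in pre-starved against naive salt cultures, beside 24.7%. In pre-starved against naive used medium 3 rose, beside 21.6%, and 1 (dewA) fell, beside 18.1% called lower. The part of such cells in the changes of mstE, hxtB, mstA, hxtC, hxkA and glkA was not tested.

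The size of the response to salt was compared between histories, as each group's change from the refed cultures of the same history. The response itself was called for all 7 members in pre-starved cultures, beside 76.6% of all genes, and for 6 in naive cultures, beside 75.3%, hxtB being the member not called. The pre-starved call of hxtB (log2 change 0.59 ± 0.22 SE, adjusted p = 0.0250) was lost without pre-starved salt culture A (0.15, adjusted p = 0.480), without pre-starved refed culture B (0.47, adjusted p = 0.146) and with only the groups compared (adjusted p = 0.0698), and it was 1.34 with library totals. The difference of the responses was called for 3 members, beside 29.1% of all genes, and all 3 fell further in pre-starved cultures, beside 12% of all genes called lower. glkA fell 16.1-fold in pre-starved cultures (log2 change -4.01 ± 0.23 SE, adjusted p = 7.36e-09) and 5.59-fold in naive ones (log2 change -2.48 ± 0.21 SE, adjusted p = 3.18e-07), a difference of -1.53 ± 0.29 (log2, SE, adjusted p = 0.00231). hxkA fell 3.59-fold in pre-starved cultures (log2 change -1.84 ± 0.12 SE, adjusted p = 2.55e-08) and 1.81-fold in naive ones (log2 change -0.86 ± 0.12 SE, adjusted p = 2.38e-05), a difference of -0.98 ± 0.17 (log2, SE, adjusted p = 0.00119). For mstE the difference was -1.19 ± 0.25 (log2, SE, adjusted p = 0.00454). For both kinases the refed starting level was higher in pre-starved cultures while the salt levels differed by less, with a log2 change of -0.43 for glkA and 0.12 for hxkA between pre-starved and naive salt cultures, neither called. The glkA value was called lower with only the groups compared (adjusted p = 0.0216), with DESeq2 (0.0326) and in the fit to 32 libraries (0.0129).

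**Figure D4:**
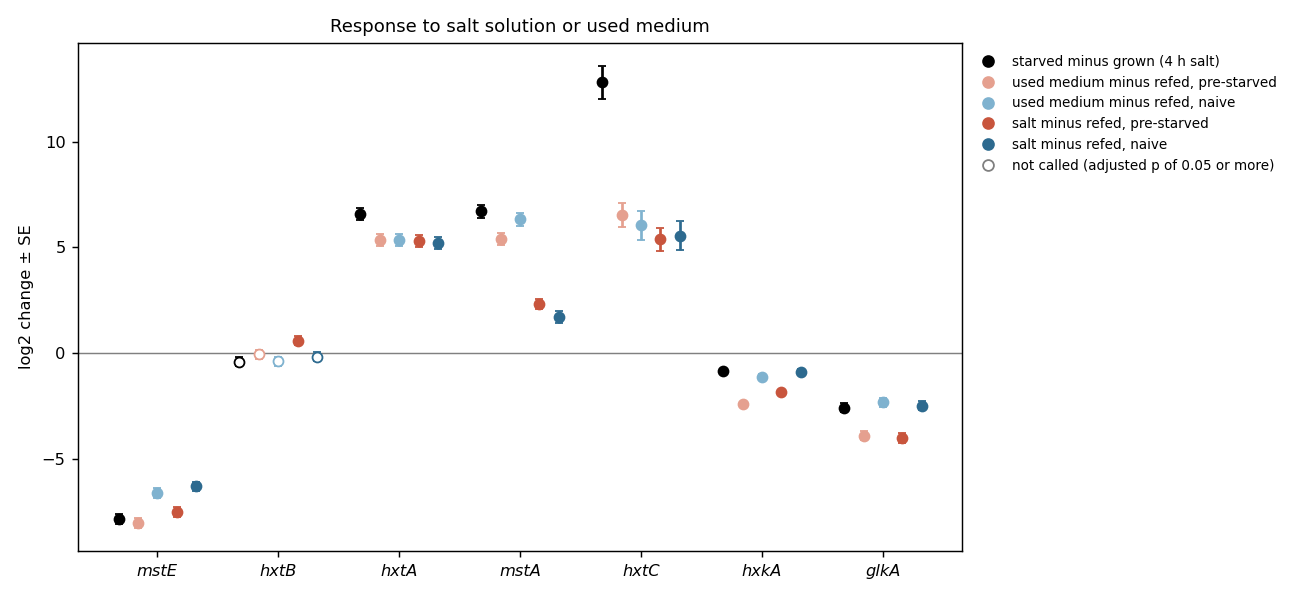
Log2 change ± SE of each member in 5 comparisons of cultures in salt or used medium with refed cultures of the same history or with grown ones, with open points for values not called. hxtA, mstA and hxtC lie above 0 and mstE, hxkA and glkA below 0 in all 5.

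mstA and hxtC answered salt from refed levels that differed between histories, whereas the refed levels of hxtA overlapped. mstA rose 5.02-fold in pre-starved salt (log2 change 2.33 ± 0.25 SE, adjusted p = 2.73e-06) and 3.29-fold in naive salt (log2 change 1.72 ± 0.27 SE, adjusted p = 7.48e-05), and hxtC rose 41.6-fold in pre-starved salt (log2 change 5.38 ± 0.54 SE, adjusted p = 1.33e-06) and 47.2-fold in naive salt (log2 change 5.56 ± 0.68 SE, adjusted p = 8.54e-06). The naive hxtC call was lost in the fit to 32 libraries (adjusted p = 0.0925). The differences of the responses were 0.61 ± 0.36 for mstA, -0.18 ± 0.87 for hxtC, 0.11 ± 0.33 for hxtA and 0.75 ± 0.30 for hxtB (log2, SE), none of them called. The hxtB difference was called with library totals (adjusted p = 0.0265), in the fit to 32 libraries (0.0135) and without pre-starved salt culture B (0.00912).

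Used medium gave 6 called members in pre-starved cultures, beside 76.9% of all genes, and the same 6 in naive cultures, beside 76.2%, with hxtB again not called. hxtB was called lower in naive used medium with only the groups compared (-0.37, adjusted p = 0.0343) and higher in pre-starved used medium with library totals (0.56, adjusted p = 0.0319). The responses differed between histories for the same 3 members as in salt, beside 27.4% of all genes called and 12.3% called lower. The difference was -1.56 ± 0.29 (log2, SE, adjusted p = 0.00216) for glkA, -1.31 ± 0.17 (log2, SE, adjusted p = 2.12e-04) for hxkA and -1.40 ± 0.25 (log2, SE, adjusted p = 0.00194) for mstE. The salt and used medium comparisons share the refed cultures. mstA rose 42.7-fold in pre-starved used medium (log2 change 5.42 ± 0.29 SE, adjusted p = 3.52e-09) and 80.3-fold in naive used medium (log2 change 6.33 ± 0.31 SE, adjusted p = 1.78e-09). Its difference of responses, -0.91 ± 0.35 (SE, adjusted p = 0.0756), was called with DESeq2 (adjusted p = 0.0286), without naive used medium culture A (0.0441) and without pre-starved used medium culture B (0.0435). hxtC rose 92.6-fold in pre-starved used medium (log2 change 6.53 ± 0.57 SE, adjusted p = 3.18e-07) and 66.0-fold in naive used medium (log2 change 6.04 ± 0.68 SE, adjusted p = 3.80e-06). The naive value fell to a log2 change of 5.24 without naive used medium culture B, and its call was lost in the fit to 32 libraries (adjusted p = 0.0777).

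mstA was higher in used medium than in salt solution with either history. In naive used medium against naive salt it was the only member called, beside 14.6% of all genes, and stood 24.4-fold higher (log2 change 4.61 ± 0.28 SE, adjusted p = 1.17e-06). In pre-starved used medium against pre-starved salt it was 8.50-fold higher (log2 change 3.09 ± 0.26 SE, adjusted p = 7.88e-06), and hxkA was 1.47-fold lower (log2 change -0.56 ± 0.12 SE, adjusted p = 0.00600), so that 2 of 7 members were called beside 17.0% of all genes. The hxkA call was lost with only the groups compared (adjusted p = 0.0509) and without pre-starved used medium culture A (0.0591). hxtC had a log2 difference between used medium and salt of 1.15 ± 0.45 in pre-starved cultures, which was called in the fit to 32 libraries (adjusted p = 3.11e-04), and of 0.48 ± 0.46 in naive cultures. hxtB had -0.63 ± 0.22 in pre-starved cultures (adjusted p = 0.0668), called lower with library totals (adjusted p = 0.0247), with DESeq2 (0.0414), in the fit to 32 libraries (0.00146) and without pre-starved salt culture B (0.00813). mstE had -0.52 ± 0.18 in pre-starved cultures (adjusted p = 0.0695), called lower with library totals (adjusted p = 0.0132), and hxkA had -0.23 ± 0.12 in naive cultures (adjusted p = 0.206), also called lower with library totals (0.0318). hxtA had 0.043 ± 0.23 in pre-starved and 0.17 ± 0.23 in naive cultures (SE).

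Genes downstream of the kinases were counted from lists in which a gene was kept where the reference annotation gave its symbol. Of the 9 glycolysis genes listed, 3 were kept: gpdA (glyceraldehyde 3-phosphate dehydrogenase), pgkA (phosphoglycerate kinase) and the enolase gene, given there as aspf22. All 3 fell in starved against grown cultures, beside 34.6% of all genes called lower, with a median log2 change of -3.48 (all tested genes, 0.10), and all 3 rose in pre-starved refed against starved cultures, beside 35.2% called higher, with a median of 4.23 (all tested genes, -0.14). gpdA had 601 and 794 CPM in starved cultures and 8912 and 9804 CPM in grown ones (log2 change -3.75). All 3 also fell in each response to salt and to used medium, beside 36.4% to 39.1% of all genes called lower, and rose in pre-starved refed against grown cultures, beside 22% called higher. In pre-starved against naive refed cultures 2 of the 3 rose, beside 21.4% of all genes. The salt response was called lower in pre-starved cultures for 2 of them, beside 12% of all genes, with a difference of -1.22 for pgkA and -1.03 for gpdA. In used medium that difference was -0.28 for pgkA (adjusted p = 0.631) and -0.58 for gpdA (adjusted p = 0.106).

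Of 5 genes of other glucose 6-phosphate routes, pgmA (phosphoglucomutase) and orlA (trehalose 6-phosphate phosphatase) were kept. pgmA fell in starved against grown cultures (log2 change -0.74, adjusted p = 1.99e-05) and orlA had a value of -0.001 (adjusted p = 0.998). Of 6 genes of carbon catabolite repression, creA (the repressor), creB (a deubiquitinase) and rcoA (a corepressor) were kept. creA fell in starved against grown cultures (log2 change -0.84, adjusted p = 0.0307) and creB rose (0.98, adjusted p = 0.00151), while rcoA had a value of -0.21 (adjusted p = 0.118). In pre-starved against naive refed cultures creB rose (1.42, adjusted p = 3.31e-04) and creA had a value of 0.84 (adjusted p = 0.0507). Of 6 other sugar transporter genes none was kept by this rule, so they are not analysed here.

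Patterns most like each member were sought among 8085 genes, by the root mean square (RMS) difference of log2 CPM centred per gene over the 16 cultures. mstE was nearest to AN5845, at 0.237, and then to niiA (nitrite reductase) at 0.331, against an RMS of 3.54 for mstE's own deviations. niiA was highest in pre-starved refed and lowest in starved cultures. hxtB was nearest to nsdD, which encodes a GATA-type transcription factor of sexual development, at 0.218 against 0.479 for its own deviations. hxtA was nearest to AN3996, at 0.366 against 2.73, hxkA to AN2397, at 0.190 against 0.753, and glkA to AN3954, at 0.217 against 1.49. The genes nearest to mstA and hxtC were AN7181, at 0.707 against 3.05, and mep20 (AN7962), at 1.51 against 4.48. Among the members themselves, hxkA and glkA were the closest pair (0.834), followed by hxtB and hxkA (0.852), and mstE and hxtC the farthest (7.74). These distances are not scaled, so genes that move little lie close to each other. The hxtB and hxkA distance exceeded the own deviations of both genes (0.479 and 0.753) and does not show a shared pattern. These distances describe the 16 cultures, of which pairs share a group.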

How the data were processed

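The members and the gene lists were chosen with earlier results of these data known. The authors deposited raw counts per gene in 1 column for each of 32 libraries, and these were the values used. The TruSeq RNA kit v2 was used and single ends of 50 nt were read, per the labels' protocols, and the authors mapped reads to the FGSC A4 genome. The kit keeps no strand. Per the submitters' processing notes, the tools were Trimmomatic 0.36, BWA, HTSeq, limma and edgeR. The role of each tool, like the annotation and the handling of reads with several matches, is not given in the sources used here. Reads shared by related transporters could be split between them or lost.

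Gene symbols of the members come from the definition of the gene set. The reference annotation (ASM1142v1, used only for names and neighbours) held 6 of the 7 identifiers, without symbols and with no other gene model overlapping those 6. Library totals ran from 19634577 to 33202687 counts. The 2 technical libraries of each culture were added up, since per the labels letters mark biological and numbers technical replicates, and p-values measure the spread between cultures. Chi-square over degrees of freedom was 2.12 to 2.29 between technical libraries and 44.3 to 274 between the cultures of a group. With R 4.3.3 and edgeR 4.0.16, filterByExpr (minimum count 10, minimum total 15, with the groups) kept 10022 genes, and the 659 left out held 0.00149% of counts. Sums were scaled by TMM, a model with group means was fitted over the 16 cultures with glmQLFit (8 residual degrees of freedom), and 15 comparisons were tested 2-sided with glmQLFTest. P-values were adjusted by Benjamini-Hochberg over all tested genes of a comparison, with a threshold of 0.05. The SE of a log2 change is its size divided by the square root of the F statistic. The procedure was tested on simulated data in which few genes changed, balanced up and down. Most genes moved in several of the real comparisons, so the simulation does not test the scaling there.

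Levels per length used the column of log2 exon length deposited by the authors. The authors' deposited log2 FPKM, a column for each group, served as a check: the log2 CPM per kb computed here minus those values ran from -0.61 to 0.88 over members and groups. How these were averaged is not given in the sources used here.

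Alternatives were library totals in place of TMM, no low-count filter, only the groups compared, the culture letter as a block, each culture left out, DESeq2 1.42.0, and the 32 libraries fitted with limma 3.58.1 and an estimated correlation of technical libraries. All 7 members are named in each comparison, with the 3 genes of most like pattern per member, not all of which are named in the text. A list gene was kept where the reference gave one of its expected symbols.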

Additional observations from a re-analysis of the deposited data

Results flagged for a closer look

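For 3 members the response of pre-starved cultures to the loss of fresh medium differed from that of naive cultures, by a test of the difference itself across all genes. The same test called 29.1% of all genes in salt and 27.4% in used medium, with 12% and 12.3% called lower. In salt solution the difference of the log2 responses was -1.19 ± 0.25 (SE) for mstE, -0.98 ± 0.17 for hxkA and -1.53 ± 0.29 for glkA. In used medium it was -1.40 ± 0.25 for mstE, -1.31 ± 0.17 for hxkA and -1.56 ± 0.29 for glkA. All 6 values are negative, since the fall was larger in pre-starved cultures, and all 6 calls were kept under each alternative run. For the kinases the refed levels were higher in pre-starved cultures (log2 change 1.11 for hxkA and 1.10 for glkA). Their levels after the shift were not called, at 0.12 and -0.43 in salt and -0.20 and -0.47 in used medium. Some alternatives called glkA lower there. For mstE the refed levels were not called apart (0.18), and the levels after the shift were lower (-1.01 and -1.22). Both media were set against the same refed cultures. Summed markers of conidiophores and conidia were 2183 and 1728 CPM in pre-starved and 24.3 and 22.4 CPM in naive refed cultures. Most of the pre-starved sum was rodA (2021 and 1620 CPM). The part of such cells in these differences was not tested.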

How the results depend on the processing

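With 2 cultures per group, calls rest on a spread pooled over 8 groups, and where 1 culture was left out the other one of its group was assumed to vary like the rest. The lowest levels, those of hxtC in grown and naive refed cultures, rested on 5 to 12 counts per culture. Library totals in place of TMM shifted the median over all tested genes by -0.67 (log2) in pre-starved refed against starved cultures. Against pre-starved refed cultures the shift was 0.77 in pre-starved salt and 0.60 in pre-starved used medium. In these comparisons fold changes of members moved by over 1.5 times. Signs turned with the fit to 32 libraries for hxtA in pre-starved used medium against pre-starved salt (-0.034), with DESeq2 for mstE in pre-starved refed against grown (0.004), hxkA in pre-starved salt against naive salt (-0.003) and hxtA in the difference of the salt responses (-0.021), with library totals for hxtB in starved against grown (0.11), hxtA in pre-starved refed against naive refed (-0.15), hxtB in naive salt against naive refed (0.36), hxtC in the difference of the salt responses (0.059), hxtB in pre-starved used medium against pre-starved refed (0.56), hxtA in pre-starved used medium against naive used medium (0.052), hxtA in the difference of the used medium responses (0.20), hxtA in pre-starved used medium against pre-starved salt (-0.13) and glkA in pre-starved used medium against pre-starved salt (-0.033), with no filter on low counts for hxtA in pre-starved used medium against naive used medium (0.0), and with only the groups compared in the fit for hxtA in pre-starved refed against naive refed (-0.022). With cultures left out in turn, the values ran from -0.21 to 0.16 for mstE in pre-starved refed against grown, -0.12 to 0.95 for hxtC in naive refed against grown, -0.14 to 0.26 for glkA in naive refed against grown, -0.54 to 0.47 for mstA in naive refed against grown, -0.10 to 0.13 for hxtA in pre-starved refed against naive refed, -0.014 to 0.35 for mstE in pre-starved refed against naive refed, -0.023 to 0.29 for hxkA in pre-starved salt against naive salt, -0.002 to 0.23 for hxtA in the difference of the salt responses, -0.55 to 0.12 for hxtC in the difference of the salt responses, -0.24 to 0.13 for hxtB in pre-starved used medium against pre-starved refed, -0.57 to 0.40 for hxtA in pre-starved used medium against naive used medium, -0.59 to 0.39 for hxtA in the difference of the used medium responses, -0.052 to 1.31 for hxtC in the difference of the used medium responses, -0.33 to 1.01 for hxtC in naive used medium against naive salt, -0.53 to 0.45 for hxtA in pre-starved used medium against pre-starved salt and -0.064 to 0.31 for glkA in pre-starved used medium against pre-starved salt. In naive used medium against naive salt, 2 members were called with library totals instead of 1. In pre-starved used medium against pre-starved salt, 4 were called with library totals, 1 with only the groups compared and 4 in the fit to 32 libraries instead of 2, and 1 to 3 with a culture left out. Over all genes, the naive refed against grown comparison had 311 calls, but 743 with only the groups compared, 599 with DESeq2, 599 in the fit to 32 libraries and 69 to 130 with a culture left out. Pre-starved against naive used medium had 3978 calls and 2421 with only the groups compared. Naive used medium against naive salt had 1463, and 569, 820 and 692 without naive salt A, naive salt B and naive used medium B. Pre-starved used medium against pre-starved salt had 1706, but 721 with only the groups compared, 2622 in the fit to 32 libraries, and 816 and 999 without pre-starved salt B and pre-starved used medium A. The causes were not tested. With the culture letter as a replicate block, the number of members called was the same in all 15 comparisons, for example 6 in starved against grown cultures, and that comparison had 7325 calls over all genes instead of 7358. The letters are not said to mark a shared batch. The deviations of same-lettered cultures correlated at -0.236 to 0.362 between compared groups, and these values do not settle whether such cultures shared one.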
